A study of Rattus norvegicus with 2 samples.

Results

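The genes described here make, take up, move and store cholesterol and related lipids in the cell. They were chosen by name, as a fixed list of 37 genes, and every probe set that the array annotation assigns to exactly 1 of them was used. Probe sets of this kind were present for 36 of the 37 genes, 67 probe sets in all, among 14217 genes on the array. The expression of Hmgcs1 was not analysed here, and that gene enters only the counts of promoter windows. The samples were microglia of Sprague Dawley rats, brain-resident macrophages, grown in medium with serum. One sample had spent 3 h without oxygen and glucose (OGD, oxygen-glucose deprivation, which models ischaemia in culture), and the other was a resting control with no exposure (1 Affymetrix rat array each). The labels name no transgene or genetic change for either sample, and they do not give the number of animals, the purity of the culture or a recovery period after OGD. Neither group had a replicate, so differences are given without p-values or errors across cultures and describe these 2 arrays.

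Cholesterol is made from acetyl-CoA. Isoprenoid precursors come first, are joined to squalene, and are then closed and trimmed into sterols. When sterols in the endoplasmic reticulum run low, the escort protein SCAP carries SREBP transcription factors to the Golgi for cleavage, and the freed factors switch on the synthesis genes, while INSIG proteins hold SCAP back when sterols are plentiful. When sterols are in excess, the nuclear receptors LXR switch on the transporters that hand cholesterol to apolipoprotein E. Several steps of sterol synthesis use molecular oxygen, and microglia are known to load and export cholesterol when they take up lipid-rich debris.

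The first and the isomerising step of the precursor branch lay furthest from equality, in opposite directions. Acat2, which joins acetyl units at the entry to the pathway, had an intensity of 19.2 on the OGD array, against 30.2 on the resting array. Idi1, which isomerises isopentenyl diphosphate, had 25.9 on the OGD array, against 21.5 on the resting array. Fdps, which joins the isoprenoid units into farnesyl diphosphate, read 1718 on both arrays. Promoters of these genes (250 bases before to 50 after the start, 5′ to 3′, build GRCr8) are printed because the 3 genes act in the same branch and differed in opposite directions or not at all. They were taken from RefSeq, whose promoter table held 30 of the 37 genes in 34 windows, with several windows for some genes. Capitals mark the NF-Y box CCAAT, or its complement, and the core CACNCCAC of the site bound by SREBP, on either strand.
Acat2 (chr1:50100590-50100889, + strand): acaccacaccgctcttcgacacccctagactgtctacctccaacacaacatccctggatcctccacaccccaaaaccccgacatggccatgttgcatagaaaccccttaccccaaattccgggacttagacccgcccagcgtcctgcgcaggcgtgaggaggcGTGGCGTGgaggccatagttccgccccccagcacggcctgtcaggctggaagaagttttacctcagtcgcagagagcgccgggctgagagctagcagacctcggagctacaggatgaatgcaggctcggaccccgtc
Idi1 (chr17:66547475-66547774, - strand): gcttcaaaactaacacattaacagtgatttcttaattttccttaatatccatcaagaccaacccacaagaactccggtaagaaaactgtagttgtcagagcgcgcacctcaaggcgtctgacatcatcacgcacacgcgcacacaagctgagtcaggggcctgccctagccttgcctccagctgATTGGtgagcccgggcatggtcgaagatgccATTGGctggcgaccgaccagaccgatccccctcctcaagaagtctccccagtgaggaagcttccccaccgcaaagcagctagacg
Fdps (chr2:176804767-176805066, - strand): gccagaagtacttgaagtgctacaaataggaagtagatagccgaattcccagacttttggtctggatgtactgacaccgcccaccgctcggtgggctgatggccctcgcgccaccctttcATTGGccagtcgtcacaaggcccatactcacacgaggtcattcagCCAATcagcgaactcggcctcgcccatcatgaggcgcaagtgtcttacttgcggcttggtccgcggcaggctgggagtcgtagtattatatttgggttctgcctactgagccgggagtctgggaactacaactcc
The NF-Y box, bound by the factor that works beside SREBP at sterol gene promoters, was found in both the Idi1 and the Fdps window, with 2 copies in each, and in neither strand of the Acat2 window. The SREBP core was found once in the Acat2 window, as GTGGCGTG starting 87 bases before the start. Over the whole set the NF-Y box was in 23 of 34 windows (67.6%), against 37.5% of all 33469 windows of the same length. The 23 windows belong to 21 genes, and 1 box of Apoe lies in 2 overlapping windows and is counted in each. The NF-Y box was in 12 of the 15 windows of synthesis genes. The SREBP core was in 3 of the 34 windows (8.82%), those of Acat2, Insig1 and Ebp, against 5.8% of all windows. The longer site TCACNCCAC, which contains that core, was in 0 of the 34 and in 1.12% of all windows, and the palindrome TCANNTGA was in 1 of the 34, that of Nr1h3, against 7.76%. The direct repeat bound by LXR (the half-site AGGTCA, repeated in the same orientation after a gap of 4 bases) was in 0 of the 34 windows and in 0.00598% of all windows. These are matches of letters, not sites shown to be bound, and their relation to the differences between the arrays was not tested.

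A probe set was taken as measured when it exceeded the median non-control probe set (the floor) on at least 1 array, which was 19.7 on the OGD array and 19.6 on the resting array. Each gene was read from its brightest probe set, and a gene above the floor on 1 array only was given a bound. Of the 36 genes, 29 were measured, 28 of them on both arrays. Of these 29, 1 gene (Acat2) was lower by 1.5-fold or more, the threshold of the study's design, and 0 were higher. Over all 9580 measured genes 0.0418% were lower and 0.0731% were higher by that much. At a finer threshold of 1.2-fold, 1 gene of the set (Idi1) was higher and 1 (Acat2) was lower, against 3.56% higher and 3.97% lower among all measured genes. The other 27 measured genes lay within 1.2-fold, which made 93.1% of the set within 1.2-fold, against 92.5% of all measured genes. This share is close to the background and says nothing particular of the set. In direction 12 genes of the set were higher, 14 lower and 3 equal on the OGD array. The split depended on scaling, with 18 higher and 11 lower once a loess trend on brightness was removed and 17 higher and 12 lower after quantile normalization. Among all measured genes 4103 were higher, 4915 lower and 562 equal, which became 4673 higher and 4908 lower with loess and 4640 higher and 4884 lower with quantile scaling, so the equal values took a sign there too. The median log2 difference (OGD minus resting) was 0 over the set and -0.0076 over all measured genes.

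**Figure D1:**
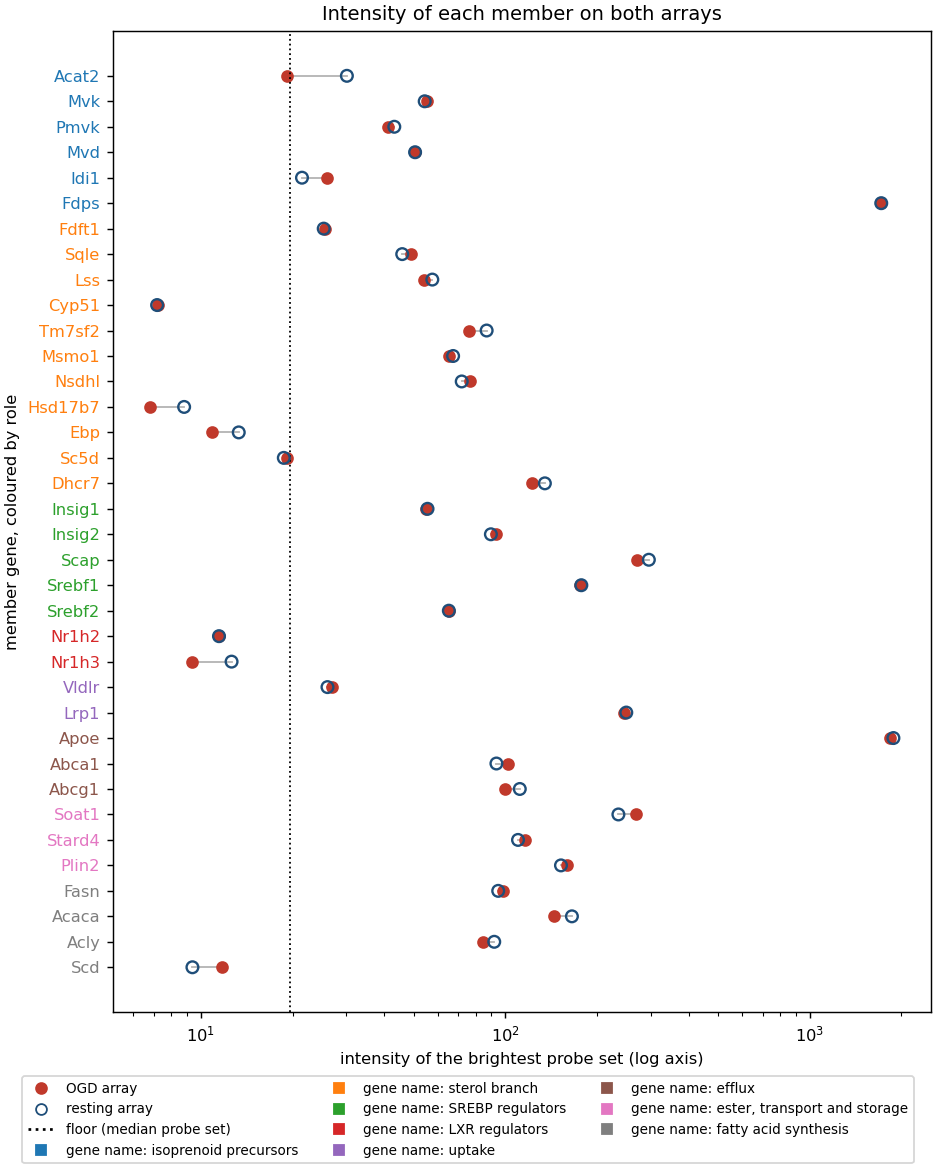
Intensity of the brightest probe set of each of the 36 genes (log axis) on the OGD array (filled red) and the resting array (open blue), with gene names coloured by role and the floor dotted. Acat2 has the widest gap among the measured genes, at 19.2 on the OGD array against 30.2 on the resting array, and both LXR receptor genes and Scd lie left of the floor on both arrays.

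Enzymes that make isoprenoid precursors were mostly level apart from the 2 genes above. The Acat2 difference was at least 1.53-fold lower on the OGD array, a bound because the OGD value was under the floor. Acat2 had a single probe set, so no second reading of it was available. The Idi1 difference was 1.21-fold higher, ranked 315 from the highest, and its other probe set read 4.81 on the OGD array and 4.98 on the resting array, both under the floor. Genes above the floor on both arrays with a mean intensity under 50, the range in which Idi1 lies, had an SD of 0.17 in their log2 differences, and 10.6% of them were past 1.2-fold. Both Acat2 and Idi1 therefore rest on dim probe sets. Mvk, the mevalonate kinase, had 55.2 on the OGD array, against 54.3 on the resting array. Its other probe sets had log2 differences of -0.032 and 0.19, so they did not share a direction. Pmvk, which adds the second phosphate, had 41.0 on the OGD array, against 43.2 on the resting array. Mvd, which removes a carboxyl group to give isopentenyl diphosphate, read 50.5 on both. Mvd and Fdps were equal to every digit in the deposited values, as were 7 of the 67 probe sets of the set (10.4%) and 8.70% of all probe sets. The part that exact equality plays in their differences of 0 was not tested. The median log2 difference over the 6 precursor genes measured was 0, with 2 higher, 2 lower and 2 equal.

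In the branch from squalene to cholesterol 7 of 11 genes were measured, with 3 higher, 4 lower and 0 past 1.2-fold. Sqle, the oxygen-using enzyme that makes squalene epoxide, had 48.9 on the OGD array, against 45.8 on the resting array. Nsdhl, a demethylation enzyme, had 76.5 on the OGD array, against 71.9 on the resting array. Fdft1, the squalene synthase, had 25.7 on the OGD array, against 25.3 on the resting array, and its second probe set also differed by only 0.030 on the log2 scale. Those 3 genes stood slightly higher after OGD, each by up to 1.07-fold, within the spread between probe sets of a gene given below. On the other side, Tm7sf2, a sterol reductase, had 76.1 on the OGD array, against 86.8 on the resting array, a 1.14-fold lower value. Dhcr7, the reductase that ends one route to cholesterol, had 122.7 on the OGD array, against 134.9 on the resting array, which is 1.10-fold lower. Lss, which closes squalene epoxide into lanosterol, had 54.1 on the OGD array, against 57.6 on the resting array. Msmo1, the oxygen-using methylsterol oxidase, had 65.3 on the OGD array, against 67.4 on the resting array. Tm7sf2 and Dhcr7 were thus both lower, while Sqle and Msmo1 differed in opposite directions. Of these genes, only Tm7sf2 had a difference larger than the spread between probe sets of a gene given below. Cyp51, Hsd17b7, Ebp and Sc5d were under the floor on both arrays in all their probe sets and are given no fold. The brightest of these, for Sc5d, read 19.2 on the OGD array and 18.7 on the resting array. The median log2 difference of the branch was -0.044, and over all 13 measured synthesis genes it was 0.

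Regulators of the SREBP arm were all measured and differed little. Insig1, itself a target of SREBP and an anchor of SCAP, had 54.8 on the OGD array, against 55.5 on the resting array. Insig2, its relative with the same anchoring role, had 93.1 on the OGD array, against 89.7 on the resting array. Srebf2, the SREBP gene tied most closely to cholesterol synthesis, read 65.2 on both arrays. These 3 genes were within 1.04-fold. Scap had 270.7 on the OGD array, against 296.2 on the resting array, and its second probe set had 35.4 on the OGD array, against 38.5 on the resting array. The log2 differences of Scap, -0.13 and -0.12, were close in probe sets of very different brightness. Both lay within the spread between probe sets of a gene given below. Srebf1, the SREBP gene that leans to fatty acid synthesis, had 175.4 on the OGD array, against 177.7 on the resting array, in its brightest probe set. The other had 63.4 on the OGD array, against 72.0 on the resting array. The log2 differences of Srebf1 were -0.018 and -0.18, and the first of these turned to 0.0079 with quantile and 0.0074 with loess scaling. The median over the 5 genes was -0.018, and it turned to 0.0061 with loess scaling. In the LXR arm neither receptor gene was measured. Nr1h2 read 11.5 on both arrays, and Nr1h3, the receptor form of macrophages, read 9.35 on the OGD array and 12.6 on the resting array, all under the floor.

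**Figure D2:**
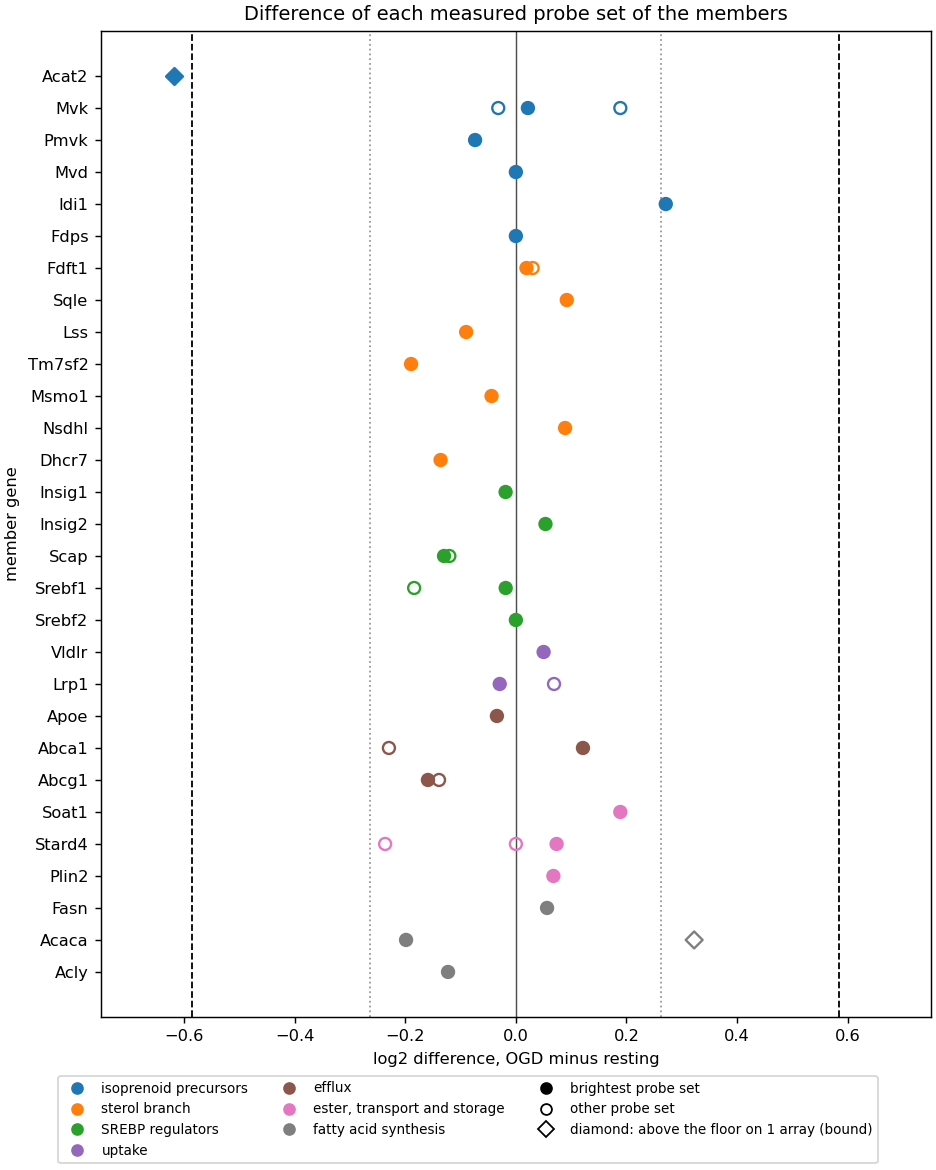
Log2 difference (OGD minus resting) of each measured probe set, 1 row per gene, coloured by role. Filled symbols are the brightest probe set, open symbols the others, and diamonds are bounds. Dashed lines mark 1.5-fold and dotted lines 1.2-fold. Acat2 alone lies past a dashed line, and Abca1, Acaca, Lrp1, Mvk and Stard4 each have an open symbol on the other side of 0 from the filled one.

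For uptake 2 receptor genes were measured. Vldlr, a receptor for lipoproteins that carry apolipoprotein E, had 27.0 on the OGD array, against 26.0 on the resting array, while its other 3 probe sets were under the floor. Lrp1, a large scavenging receptor for the same particles, had 244.7 on the OGD array, against 249.7 on the resting array. The second probe set of Lrp1 differed by 0.069 on the log2 scale and the first by -0.029, which became 0.0001 with loess scaling. The readings of Lrp1 thus shared no direction, and Vldlr had only 1 measured reading.

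For efflux 3 genes were measured. Apoe, the main lipid carrier protein made by glia, had 1839 on the OGD array, against 1883 on the resting array. Its second probe set read 5.82 on the OGD array and 8.04 on the resting array, both under the floor. The log2 difference of the brightest Apoe probe set, -0.034, turned to 0.040 with quantile and 0.0004 with loess scaling. The cholesterol exporter genes Abca1 and Abcg1, both LXR targets, read differently. Abcg1 had 99.9 on the OGD array, against 111.6 on the resting array, and its second probe set had 61.6 on the OGD array, against 67.9 on the resting array. Both of these readings were lower, by 1.12-fold and 1.10-fold, while a probe set under the floor read 13.3 on the OGD array and 9.22 on the resting array. With the mean over its probe sets Abcg1 had a log2 difference of 0.075, in place of -0.16. Abca1 had 101.7 on the OGD array, against 93.5 on the resting array, but its second probe set had 35.2 on the OGD array, against 41.3 on the resting array. For Abca1 the brighter reading was thus 1.09-fold higher and the dimmer one 1.17-fold lower. The median log2 difference of the efflux genes was -0.034, with 1 higher and 2 lower.

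Genes of sterol esterification, transport and storage were higher on the OGD array in 3 of 3 brightest probe sets, against 42.8% of all measured genes. Soat1, which esterifies cholesterol for storage, had 268.1 on the OGD array, against 235.2 on the resting array. Its 1.14-fold difference ranked 802 from the highest of the 9580 genes, while its second probe set was under the floor (4.59 on the OGD array, 4.34 on the resting array). Plin2, a coat protein of lipid droplets, had 159.7 on the OGD array, against 152.4 on the resting array, a 1.05-fold higher value. Stard4, which carries sterol between membranes, had 115.9 on the OGD array, against 110.1 on the resting array. Another probe set of Stard4 had 61.7 on the OGD array, against 72.7 on the resting array, and the remaining one read 54.6 on both. The median of these genes was 0.074 by the brightest probe sets, and Stard4 gave no common direction. The differences of Plin2 and of the brightest Stard4 probe set lay within the spread between probe sets of a gene given below.

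In fatty acid synthesis, which SREBP also controls, 3 of 4 genes were measured, with 1 higher and 2 lower. Acaca, the acetyl-CoA carboxylase, had 144.2 on the OGD array, against 165.5 on the resting array, which is 1.15-fold lower. A second, dim probe set of Acaca had 24.5 on the OGD array, against 18.3 on the resting array, and its bound of at least 1.25-fold higher ran the other way. Acly, which supplies cytosolic acetyl-CoA, had 84.5 on the OGD array, against 92.0 on the resting array, or 1.09-fold lower. Fasn, the fatty acid synthase, had 98.5 on the OGD array, against 94.8 on the resting array. The readings of Acaca thus shared no direction, with 0.11 on the log2 scale for the mean over its probe sets. Fasn was 1.04-fold higher in its brightest probe set and had -0.023 on the log2 scale for that mean. Scd, a desaturase, read 11.7 on the OGD array and 9.38 on the resting array, under the floor on both. The median log2 difference of the 3 genes was -0.12.

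With no replicates, one spread that can be had for a single gene is that between its probe sets, which covers noise of single probe sets but not labelling, hybridisation or culture. Over the 1902 genes with 2 or more probe sets that exceeded the floor on both arrays, the pooled SD of the log2 differences was 0.15, and the signs differed within 48.2% of these genes. For the 8 genes of the set with such probe sets the SD was 0.13, with differing signs in 4 (Abca1, Lrp1, Mvk and Stard4). The widest of these ranges was in Abca1, 0.35 on the log2 scale, and the narrowest in Scap, 0.0096. The role medians of the log2 difference were -0.12 for fatty acid synthesis, -0.044 for the sterol branch, -0.034 for efflux, -0.018 for the SREBP arm, 0 for precursors, 0.010 for uptake and 0.074 for storage and transport, against -0.0076 over all measured genes. Each rests on 2 to 7 genes on 1 array per group, so these data give no error by which synthesis, uptake, efflux and regulator genes could be ordered.

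**Figure D3:**
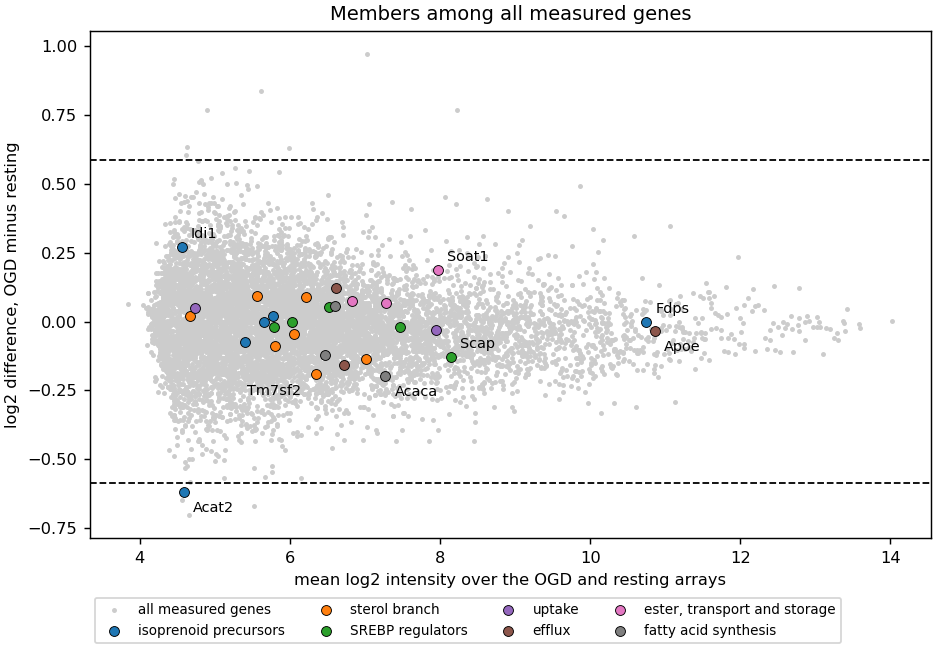
Log2 difference (OGD minus resting) against mean log2 intensity for 9580 measured genes (grey), with the 29 measured genes of the set coloured by role. Dashed lines mark 1.5-fold. Acat2 lies among the few genes beyond the lower line, and the other 28 lie inside the grey cloud between the lines.

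Related genes of the same pathways, outside the set, gave 43 measured genes of 59 listed, and 0 of these were past 1.5-fold in either direction. Of the 43, 15 were higher, 27 lower and 1 equal, with a median log2 difference of -0.047, against 42.8% higher and 51.3% lower among all measured genes. Past 1.2-fold there were 2 higher and 2 lower, against 3.56% higher and 3.97% lower among all measured genes. This left 90.7% of the related genes within 1.2-fold, close to the 92.5% of all measured genes. Ch25h, which makes the immune oxysterol 25-hydroxycholesterol from cholesterol with oxygen, had 35.3 on the OGD array, against 26.2 on the resting array, a 1.35-fold higher value. Osbpl9, of a lipid transfer protein family, had 26.6 on the OGD array, against 21.1 on the resting array, and Abca7, a lipid transporter, had 27.2 on the OGD array, against 24.2 on the resting array. All 3 of these largest higher values were dim. On the lower side were Acat1, the mitochondrial thiolase with the same reaction as Acat2, with 110.0 on the OGD array against 136.4 on the resting array. Mbtps1, the Golgi protease that makes the first cut in SREBP, had 82.7 on the OGD array, against 99.3 on the resting array. Sorl1, a sorting receptor, had 889.6 on the OGD array, against 1061 on the resting array. Acat1 and Acat2 were thus both lower, by 1.24-fold and at least 1.53-fold.

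The labelled cell type was checked against marker genes. Of 12 microglial markers 10 had a probe set and all 10 were measured, with a summed intensity of 1219 on the OGD array and 1277 on the resting array. Most of that sum came from 2 markers. Trem2 read 582.6 on the OGD array and 604.2 on the resting array, and Cd68 read 359.7 on the OGD array and 370.7 on the resting array. The brightest of the other markers, Itgam, read 56.5 on the OGD array and 60.9 on the resting array. Csf1r was near the floor, at 19.3 on the OGD array and 21.9 on the resting array. All 10 were lower on the OGD array, with log2 differences of -0.26 to -0.010, and all 10 were also lower with quantile, loess and median scaling. Astrocytes are the main cholesterol makers of the brain, and 3 of their 7 markers were measured, all higher on the OGD array. Gfap had 36.9 on the OGD array, against 27.4 on the resting array, Slc1a2 had 32.0 on the OGD array, against 23.8 on the resting array, and Gja1 had 24.3 on the OGD array, against 22.1 on the resting array. All 3 were dim, in the range of mean intensity under 50 where 10.6% of genes were past 1.2-fold. With the floor at the 70th percentile 0 of the astrocyte markers were measured. Slc1a3, Aqp4, Aldh1l1 and S100b were under the floor on both arrays. The summed intensity of the 7 astrocyte markers was 139.5 on the OGD array and 117.6 on the resting array. Markers of other cells were summed in the same way. These sums and that of the astrocytes include markers under the floor, and the lists differ in length, so the sums do not compare cell types. The summed intensity was 145.3 on the OGD array and 145.0 on the resting array for 7 oligodendrocyte markers, 206.1 on the OGD array and 201.8 on the resting array for 5 neuron markers, 101.9 on the OGD array and 97.8 on the resting array for 5 fibroblast markers, and 158.0 on the OGD array and 152.7 on the resting array for 4 endothelial markers. Of these lists 3, 2, 2 and 2 markers were measured, in that order, and none of the lists had a common direction. Mbp was 1.17-fold higher, while Sox10 and Cspg4 were lower, by 1.05-fold and 1.06-fold. Syn1 was 1.18-fold higher and Elavl3 1.08-fold lower. Col1a1 was 1.15-fold higher and Thy1 1.28-fold lower. Vwf was 1.22-fold higher and Esam 1.08-fold lower. The part of other cells in the differences of the sterol genes was not tested. In such bulk samples fewer cells of a type and less RNA per cell cannot be told apart.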

How the data were processed

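RNA was extracted with TRIzol and labelled from an oligo(dT) primer, per the labels' protocols. The deposited values are intensities, 1 linear value per probe set and array; no source used here gives the background correction, summarisation or normalization behind them, and a shift shared by most genes cannot be seen if the arrays were scaled to each other. Groups came from the labels, with 1 OGD and 1 resting array. Of 31042 probe sets besides 57 array controls, 20826 named exactly 1 gene, and Entrez IDs gave current symbols from the RefSeq table of GRCr8, which held 20758 of these. Differences are log2 OGD minus log2 resting of the brightest probe set, with values under the floor (the median of each array) set to it, in Python 3.11.15 with statsmodels 0.14.6 for loess (span 0.3). The calculation was tested on simulated data with planted fold changes. Those were planted in genes with a mean intensity over 50, so the range of Acat2 and Idi1 was not covered. The members, role groups, lists and thresholds were chosen with earlier results of these data known. The named genes were every member, and of the related list those past 1.5-fold (0 genes) or else the 3 largest differences in each direction. Promoter motifs beyond the SREBP site, the NF-Y box and the LXR repeat (the shorter SREBP core and the palindrome) were added later. Fold changes were computed as ratios of deposited intensities after values under the floor were set to it. Their precision is limited by the number of arrays.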

Additional observations from a re-analysis of the deposited data

How the results depend on the processing

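The alternatives were a floor at the 30th or 70th percentile or none, quantile normalization, removal of a loess trend, centring on the median, the mean over probe sets, the next brightest probe set, leaving out shared or cross-matching probe sets, and keeping just genes that passed the floor on both arrays. Acat2 was lower by 1.5-fold wherever it was measured, with log2 differences of -0.65 to -0.61 over 8 settings including the main one. It dropped out, leaving 0 genes lower by 1.5-fold and 0 lower by 1.2-fold, with the floor at the 70th percentile, with next brightest probe sets and with genes above the floor on both arrays. At 1.2-fold the lower count was 3 with the floor at the 30th percentile and 4 with no floor. The higher count was 2 with no floor and 0 with the floor at the 70th percentile or with the mean over probe sets. The lower floor gave 34 measured genes of the set and 11857 in all, and no floor gave 36 and 14217. Shares of all genes past 1.2-fold were not computed under these settings, so these counts have no background beside them. With next brightest probe sets, measured for 9 genes of the set, the median was -0.18 for efflux, -0.24 for storage and transport and 0.32 for fatty acid synthesis. The storage and transport value was that of Stard4 alone and the fatty acid value that of Acaca alone. The efflux value rested on Abca1 and Abcg1 only. Why these probe sets differed from the brightest ones was not tested. The other 87 of 90 values of the medians (7 role groups, all synthesis and the whole set, under 10 alternatives) moved by less than the SD between probe sets. Of 262 values of single genes 7 moved by more. With the mean over probe sets Abcg1 had 0.075, Acaca 0.11 and Apoe -0.25, and with the next brightest probe sets Srebf1 had -0.18, Abca1 -0.23, Stard4 -0.24 and Acaca 0.32. Over all genes the count past 1.5-fold was 37 with the lower floor, 58 with none and 4 with the higher floor, against 11. No paired analysis was possible because each group has 1 array.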

Other observations

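Some deposited values recurred exactly in different probe sets. The OGD value of Acat2 and that of Sc5d were both 19.2 and equal to 6 decimals, and 11 of the 67 probe sets of the sterol set (16.4%) had an OGD intensity found in another probe set, against 16.1% of all probe sets. Log2 differences recurred more often. Of 60 differences other than 0 in the set, 27 (45%) were shared to 6 decimals with another probe set, and over the whole array 66.4% were. Ch25h and the astrocyte marker Slc1a2, at different intensities, both had 0.43. The origin of these shared values was not tested.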
